A study of Mus musculus with 24 samples.

Results

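CCR6+ ILC3s are the group 3 innate lymphoid cells that include lymphoid tissue inducer cells. The deposited lists of H3K4me3 peaks from them, 2 from KO and 2 from WT mice, were compared; they are 4 of the 24 lists in the series. They were chosen by sample title (CCR6+ ILC3s, H3K4me3). KO mice carried floxed Cxxc1 and a Cre transgene and WT mice were Cxxc1flox/flox without the Cre, so both genotypes carried floxed Cxxc1, and cells were sorted from the small intestinal lamina propria. The Cre also acts in other lymphocytes besides ILC3s. Mice are labelled as 6 to 8 weeks old, while the protocol text speaks of both aged and young animals and of a culture medium; age and handling therefore remain unclear. Each library was made from 100000 cells by CUT&Tag, where a transposase tethered to an antibody inserts sequencing adapters into the nearby DNA. Whether the replicates came from separate animals is not labelled, and p-values then measure only a spread between libraries that may be technical.

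Cxxc1 encodes CFP1, the subunit that brings the SET1 methyltransferase complexes to unmethylated CpG-rich promoters through its CXXC zinc finger. SET1 complexes place trimethyl groups on lysine 4 of histone H3, a mark that forms a peak around the starts of active and poised genes and spreads over a wide stretch at genes that define a cell type. ILC3s respond to IL-23 and IL-1β, and make IL-22, IL-17 and lymphotoxin; the CCR6+ subset also expresses Ccr6, Nrp1 and often Cd4.

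Promoters of named genes are shown first because their CG content differed between the groups of genes described here. They come from RefSeq (GRCm38.p6), run from 250 b before to 50 b after a listed start, read 5′ to 3′ on the strand of the gene, and have each CG, the letters that CFP1 binds when unmethylated, in capitals. The motif searched was CG, which reads the same on both strands; 94.6% of the 32851 listed promoters of this length hold it at least once, with a median of 7. Ccr6 (chr17:8235793-8236092, plus strand, 2 CG), Il2ra (chr2:11642542-11642841, plus, 3 CG), Lta (chr17:35205302-35205601, minus, 10 CG) and Nupr1 (chr7:126625421-126625720, minus, 6 CG) had a peak over these bases in both WT lists and in neither KO list.
Ccr6: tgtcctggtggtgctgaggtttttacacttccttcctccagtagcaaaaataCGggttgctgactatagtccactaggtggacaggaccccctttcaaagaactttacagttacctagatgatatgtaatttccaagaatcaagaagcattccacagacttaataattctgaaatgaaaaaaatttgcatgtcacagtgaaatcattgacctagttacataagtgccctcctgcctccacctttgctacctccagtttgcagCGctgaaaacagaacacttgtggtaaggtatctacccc
Il2ra: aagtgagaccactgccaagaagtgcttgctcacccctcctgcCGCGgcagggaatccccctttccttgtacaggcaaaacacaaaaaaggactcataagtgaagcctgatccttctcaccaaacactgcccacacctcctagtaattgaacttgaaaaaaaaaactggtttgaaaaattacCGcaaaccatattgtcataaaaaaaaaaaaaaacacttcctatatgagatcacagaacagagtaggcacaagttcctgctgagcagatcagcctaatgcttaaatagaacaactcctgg
Lta: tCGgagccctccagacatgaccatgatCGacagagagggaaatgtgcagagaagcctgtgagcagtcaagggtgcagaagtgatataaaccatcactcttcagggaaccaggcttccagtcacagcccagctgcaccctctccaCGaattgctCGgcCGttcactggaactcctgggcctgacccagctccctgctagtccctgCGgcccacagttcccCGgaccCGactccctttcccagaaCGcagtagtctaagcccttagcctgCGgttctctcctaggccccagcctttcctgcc
Nupr1: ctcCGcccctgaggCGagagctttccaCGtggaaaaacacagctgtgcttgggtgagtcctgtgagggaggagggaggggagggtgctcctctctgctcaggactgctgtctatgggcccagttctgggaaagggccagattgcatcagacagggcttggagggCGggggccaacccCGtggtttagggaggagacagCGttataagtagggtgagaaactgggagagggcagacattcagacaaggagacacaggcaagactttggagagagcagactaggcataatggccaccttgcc

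Il4 (chr11:53617289-53617588, minus, 1 CG) and Rimkla (chr4:119492549-119492848, minus, 36 CG) had a peak over these bases in both KO lists and in neither WT list.
Il4: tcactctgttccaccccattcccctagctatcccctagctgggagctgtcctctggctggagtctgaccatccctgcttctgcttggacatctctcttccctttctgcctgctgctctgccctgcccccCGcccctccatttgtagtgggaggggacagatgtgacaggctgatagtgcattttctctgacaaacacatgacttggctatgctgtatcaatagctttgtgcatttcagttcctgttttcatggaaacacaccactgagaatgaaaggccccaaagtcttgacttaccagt
Rimkla: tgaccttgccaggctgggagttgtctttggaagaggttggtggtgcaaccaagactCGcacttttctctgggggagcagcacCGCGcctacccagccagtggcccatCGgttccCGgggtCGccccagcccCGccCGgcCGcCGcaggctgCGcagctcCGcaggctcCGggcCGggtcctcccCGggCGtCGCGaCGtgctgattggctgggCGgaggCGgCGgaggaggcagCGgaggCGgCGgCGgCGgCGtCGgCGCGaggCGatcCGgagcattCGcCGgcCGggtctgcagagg

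Il7r (chr15:9529827-9530126, minus, 1 CG) and Il23r (chr6:67491806-67492105, minus, 2 CG) had a peak over these bases in KO rep2 and both WT lists and none in KO rep1.
Il7r: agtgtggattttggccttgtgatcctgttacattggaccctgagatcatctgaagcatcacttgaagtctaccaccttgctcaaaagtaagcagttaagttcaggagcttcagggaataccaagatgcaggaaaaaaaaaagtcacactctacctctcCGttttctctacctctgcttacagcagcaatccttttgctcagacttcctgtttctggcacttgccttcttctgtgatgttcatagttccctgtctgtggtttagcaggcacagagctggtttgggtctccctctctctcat
Il23r: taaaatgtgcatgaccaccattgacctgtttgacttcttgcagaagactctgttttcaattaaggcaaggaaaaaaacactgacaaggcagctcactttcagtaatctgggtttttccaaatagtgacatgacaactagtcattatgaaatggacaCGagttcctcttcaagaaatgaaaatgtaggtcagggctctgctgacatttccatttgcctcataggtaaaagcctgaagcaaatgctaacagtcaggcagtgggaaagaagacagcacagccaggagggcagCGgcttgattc

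The 4 lists differed most by library. KO rep1 held 11794 peaks and KO rep2 18032, against 15284 in WT rep1 and 14926 in WT rep2, so the KO lists were the shortest and the longest of the 4. Median peak width was 791 and 1101 b in the KO lists, against 976 and 1167 b in the WT lists. A peak lay within 1000 b of a coding gene start for 81.2% and 62.2% of the KO peaks, against 66.9% and 69.6% of the WT peaks. Of 21631 coding genes, 10229 (47.3%, 95% Wilson interval 46.6% to 48.0%) and 11894 (55.0%, 54.3% to 55.6%) had a peak in the KO lists, against 10984 (50.8%, 50.1% to 51.4%) and 11130 (51.5%, 50.8% to 52.1%) in the WT lists; these intervals cover counting error only. The log2 ratio of KO to WT was −0.05 ± 0.31 (SE) for peak number, being −0.37 in replicate 1 and 0.27 in replicate 2. It was −0.19 ± 0.27 for median width (−0.30 and −0.08), and the share of peaks at starts was 3.47 ± 9.57 percentage points higher in KO (14.3 and −7.36). Exact two-sided permutation of the genotypes gave p = 1 for number and share and p = 0.667 for width, where 2 against 2 libraries cannot go below 0.333. Without KO rep1, the peak number ratio was 0.26, the width ratio 0.045 and the share −6.01 points.

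**Figure D1:**
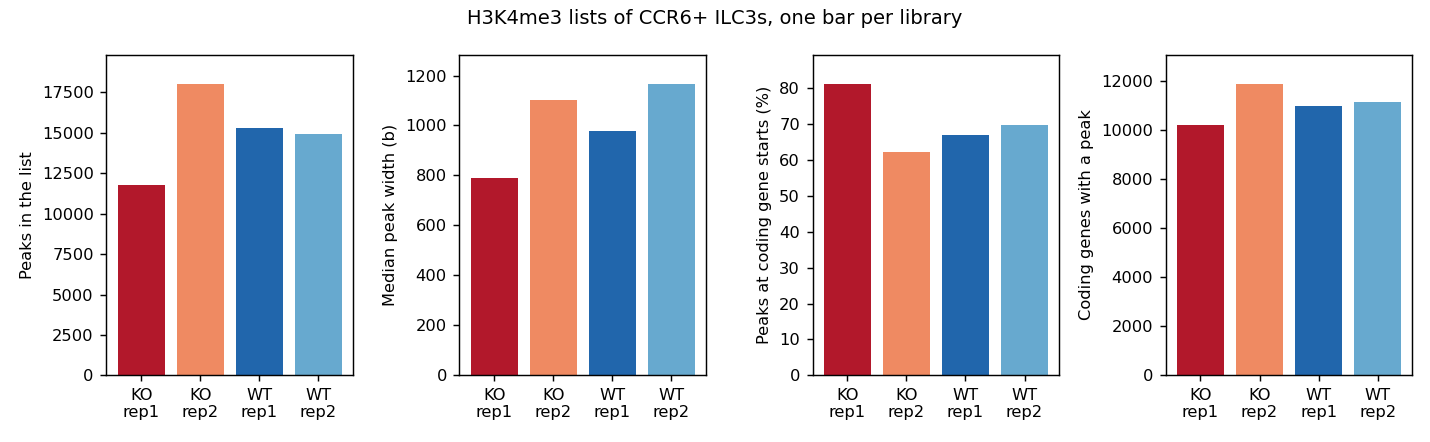
Peaks, median width in b, percent of peaks within 1000 b of a coding gene start, and coding genes with a peak, with 1 bar for each KO and WT library. The KO libraries lie on both sides of the WT libraries in peak number, share and genes, and KO rep1 has the narrowest peaks, with a median of 791 b.

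KO rep1 stood apart in content as well. The Jaccard index of covered bases, shared bases divided by all bases covered in either list, was 0.457 between KO rep1 and KO rep2, and 0.719 between the WT lists. KO rep2 shared more with WT rep2 (0.720) and WT rep1 (0.662) than with KO rep1. Nearly every KO rep1 peak (98.9%) overlapped a KO rep2 peak, but 62.6% of KO rep2 peaks overlapped one of KO rep1. The lists give no read totals, so depth is unknown, and a gene without a peak is one at which none was called in that library. Fewer marked cells and less H3K4me3 per cell cannot be told apart in such bulk lists.

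Cxxc1 itself does not check the deletion, because this antibody reads the promoter mark and not the protein. Its gene (chr18:74216212-74221493) had a peak over the lower-coordinate end in all libraries, 709 and 1258 b wide in KO and 977 and 1140 b in WT. The 20 genes of the SET1/MLL complexes and KDM5 demethylases, the writers and erasers of this mark, had a peak at 18 starts in each of the 4 libraries.

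Most gene starts marked in WT were also marked in KO. Of the 21631 coding genes, 10802 had a peak in both WT lists, and 10096 of these (93.5%) had one in both KO lists too, while 9595 genes had one in no list. In both WT lists and in neither KO list, 42 genes had one (0.194% of the genes compared), and in both KO lists and in neither WT list, 35 genes (0.162%). By comparison, 663 genes (3.07%) lacked a peak in KO rep1 alone, and 682 (3.15%) had one in KO rep2 alone. Genes that differed with the genotype in both replicates were thus fewer than those that differed in a single KO library. With the remaining 3 libraries, the first count was 705 without KO rep2, 43 without KO rep1, 92 without WT rep1 and 79 without WT rep2, and the second was 717 without KO rep1, 42 without KO rep2, 69 without WT rep1 and 86 without WT rep2. The first was thus held down by KO rep2 and hardly by KO rep1, and the second the other way round. A gene start here is any RefSeq start listed for the gene, ± 1000 b; for the 4357 coding genes with none listed, both annotated ends were used.

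Ccr6, the chemokine receptor by which the subset is sorted, was among the 42. At its start no peak was called in KO rep1 or KO rep2, against 3213 b of peaks in WT rep1 and 3553 b in WT rep2. The gene was named for this pattern, so the gap between the groups is no further evidence. KO rep2 had a peak of 1186 b that began 1309 b inside the gene, within the stretch that the WT peaks covered. Searching 2000 b around the start ended the call, as did a fold enrichment of 5 or more. KO rep1 had no peak anywhere in the gene. The WT peaks ranked low in their lists, with a fold enrichment, the authors' value of a peak over its local background, at percentile 17.8 in WT rep1 and 11.6 in WT rep2.

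Il2ra, the α chain of the IL-2 receptor, had no peak at its start in either KO list, against 690 b in WT rep1 and 2780 b in WT rep2. Downstream in the gene, KO rep2 kept peaks of 385 and 355 b, 10796 and 21432 b from its start, near WT peaks at 10734 b in WT rep1 and at 10399 and 20704 b in WT rep2. A further WT rep2 peak of 412 b, 14818 b from the start, had no KO counterpart. Lta encodes lymphotoxin α, which with Ltb forms the signal that lymphoid tissue inducer cells send to stroma. It had no peak in either KO list, against 868 b in WT rep1 and 946 b in WT rep2, at percentiles 3.7 and 2.6, close to the bottom of both WT lists, and the call ended at a fold enrichment of 5 or more and with both annotated ends searched. A neighbouring peak at Tnf, a paralogous cytokine gene, was 386 and 1896 b wide in KO, against 1945 and 2060 b in WT, so the cluster was not unmarked.

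Tnfsf4 encodes OX40 ligand, which stimulates T cells. It had no peak within 1000 b of its lower-coordinate end in KO, against 739 b in WT rep1 and 1608 b in WT rep2, and KO rep2 had 391 b at 1152 b from that end, inside the span of the WT peaks. The call ended at windows of 500 and 2000 b, and at a fold enrichment or a −log10 q of 5 or more. Arg1, arginase 1, had no peak in either KO list, against 1080 b in WT rep1 and 1920 b in WT rep2. Neither KO list had a peak anywhere in Arg1. Cd8b1, a T cell coreceptor chain, had none in KO, against 368 and 1989 b in WT, and Pdgfrb, a receptor of stromal cells, had none in KO, against 1552 and 1920 b in WT. Of the 42 genes, 18 had a peak in at least 1 KO list when the whole gene was searched.

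The genes outside the lists with the highest WT percentiles were Ucp3, Serpinb8, Ryr3, Serpinb1c, Nupr1, Plekhg1, Hsbp1l1, Avpr1a and Stab2, beside Pdgfrb. Ucp3, a mitochondrial carrier, had no peak in KO, against 799 b in WT rep1 and 1336 b in WT rep2. Serpinb8, a protease inhibitor, had none in KO, against 746 and 1562 b in WT. Nupr1, a stress-induced nuclear protein, had none in KO, against 717 and 1122 b in WT. Across these 10 genes the WT widths were 389 to 1920 b, and the percentiles ran from 19.8 to 49.5, all below the middle of the WT lists. Nmur1, the neuromedin U receptor known from ILC2s, was also called only in the WT lists, with 403 and 1852 b, and so was Ptges, a prostaglandin E synthase, with 1494 and 2208 b; both were named after their values were seen.

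**Figure D2:**
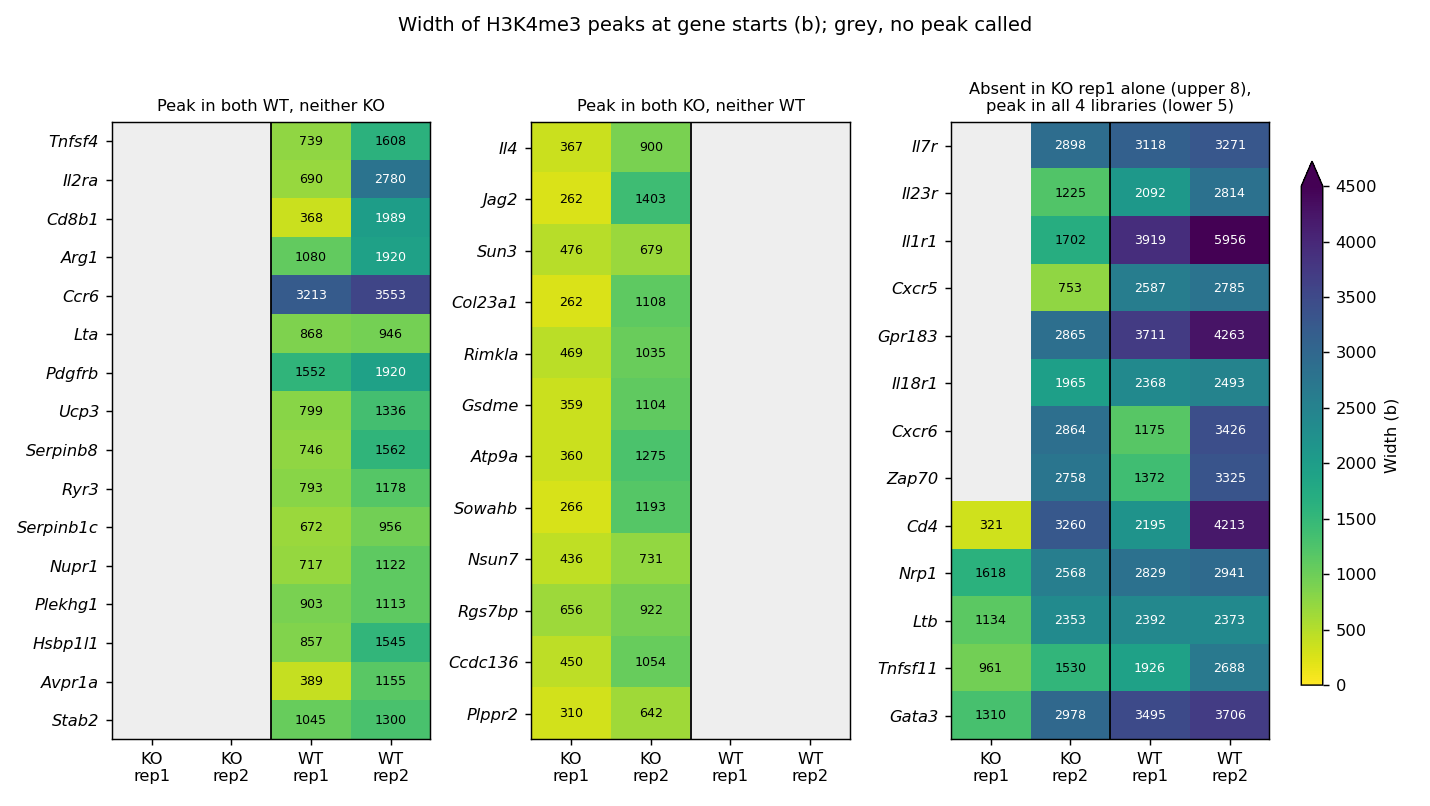
Width in b of the H3K4me3 peaks at gene starts, with 1 row per gene and 1 column per library, KO left of WT, and grey where no peak was called. The WT peaks of genes unmarked in KO reach 3553 b at Ccr6, the KO peaks of genes unmarked in WT reach 1403 b at Jag2, and the right panel shows genes without a peak in KO rep1 alone and genes with a peak in every library.

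Of the 35 genes with a peak in both KO lists and in neither WT list, 2 were in the lists of genes described here. Il4, the type 2 cytokine, had 367 b in KO rep1 and 900 b in KO rep2, and no peak in either WT list. These KO peaks ranked at percentiles 8.0 and 8.7, and the call ended at a fold enrichment of 5 or more, at a −log10 q of 5 or more, and with both annotated ends searched. Jag2, a Notch ligand, had 262 b in KO rep1 and 1403 b in KO rep2 beside its start, and none in WT. The percentiles were 4.84 in KO rep1 and 51.5 in KO rep2. In KO rep1 the fold enrichment was 4.09, so the call ended at a fold enrichment of 5 or more. A peak farther inside Jag2 was called in KO rep2 and both WT lists.

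The 10 others with the highest KO percentiles were Sun3, Col23a1, Rimkla, Gsdme, Atp9a, Sowahb, Nsun7, Rgs7bp, Ccdc136 and Plppr2. Rimkla, an enzyme that joins glutamate to N-acetylaspartate, had 469 b in KO rep1 and 1035 b in KO rep2 and no peak in WT. Gsdme, a pore-forming gasdermin, had 359 and 1104 b in KO and none in WT. Their widths were 262 to 656 b in KO rep1 and 642 to 1275 b in KO rep2, so KO rep2 was the wider at each. Percentiles ran from 12.1 to 37.3 in KO rep1 and from 47.6 to 69.7 in KO rep2.

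Promoter CG content was counted for each group, taking the highest count where several starts are listed. The 31 genes with a listed start among those marked in KO alone had a median of 21 CG in the 300-b promoter, and 83.9% had 10 or more. The 31 with a listed start among those marked in WT alone had a median of 8, and 48.4% had 10 or more. Over all 17274 coding genes with a listed start, counted in the same way, the median was 15, and 60.2% had 10 or more. Genes with a peak in all 4 lists had a median of 23 (8292 genes) and genes with none a median of 4 (7532 genes). The 491 genes without a peak in KO rep1 alone had a median of 15, between these. The 505 genes with a peak in KO rep2 alone had a median of 18, and 73.5% had 10 or more. High CG content thus also went with the longest single list. The promoters shown above are examples of both kinds, with 36 CG in Rimkla, marked in KO alone, and 2 in the start of Ccr6 shown, marked in WT alone, although Il4 with 1 CG goes the other way. These are descriptions of gene groups, with no test.

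**Figure D3:**
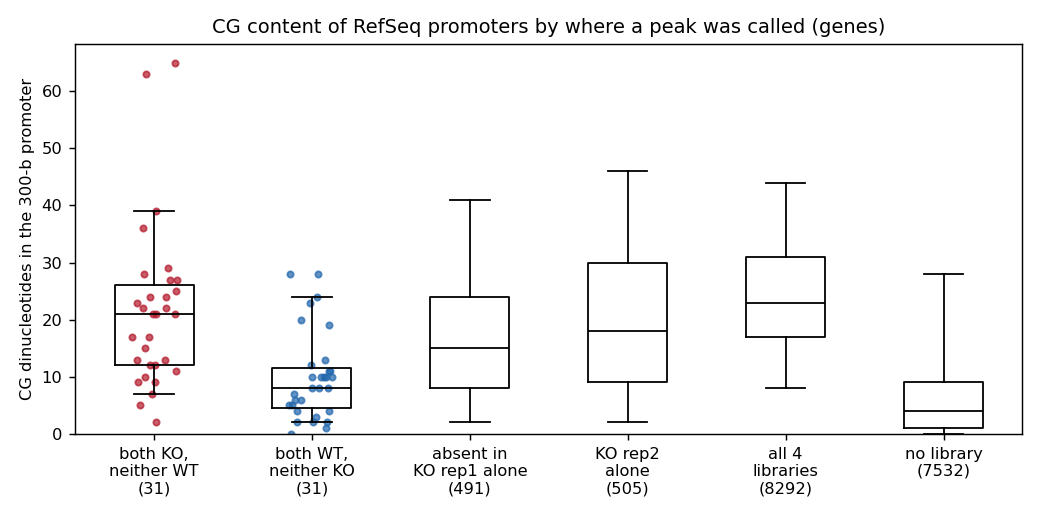
CG dinucleotides in the 300-b RefSeq promoter of genes grouped by the libraries with a peak; boxes span the quartiles with the median as a line, whiskers reach the 5th and 95th percentiles, and points are single genes in the 2 smallest groups. Genes marked in both KO and neither WT list have a median of 21, and those marked in both WT and neither KO list a median of 8. Genes with a peak in KO rep2 alone have a median of 18, and genes with a peak in all libraries 23.

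CFP1 peaks were read from the CFP1 lists of CCR6+ ILC3s. A CFP1 peak in both WT lists lay at 1 of the 42 genes marked in WT alone (2.38%), which was Lta, and at 0 of the 35 genes marked in KO alone (a count of 0 allows a share of up to 8.57%). It lay at 4089 of the 10096 genes with H3K4me3 in all 4 lists (40.5%). Over all coding genes it lay at 4097 (18.9%), and of the 663 genes without a peak in KO rep1 alone at 7. Of the 4097 genes, 2413 had no CFP1 peak in either KO list, so a part of the CFP1 peaks remained in KO. Lta, too, had a CFP1 peak in KO rep2. What the CFP1 peaks in KO reflect was not tested.

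The gene lists were next read by role. Of the 17 CCR6+ ILC3 markers, 6 had a peak in KO rep1 and 10 in KO rep2, against 13 in WT rep1 and 15 in WT rep2. Both KO libraries were below both WT libraries. A peak in WT alone was at 4, among them Ccr6, Il2ra and Lta, which is 23.5% of the list against 0.194% of all coding genes; the list was chosen with results of these data known and is no independent evidence. The 6 with a peak in every library were Cd4, Nrp1, Ltb, Tnfsf11, Tmem176a and Tmem176b, the last 2 sharing a peak. Their gene-start widths, set relative to the library median, were lower in KO than in WT by a median of 0.94 on the log2 scale, lower in 6 of 6 in each replicate, by a median of 1.24 in replicate 1 and of 0.46 in replicate 2. Over all 10096 such genes the median KO minus WT difference was 0.02, slightly higher in KO, and 45.8% were lower in KO. Among the 6, Cd4 had no listed start, so its width sums the peaks at both annotated ends. Its strongest peak lay 281 b from the lower-coordinate end, and which end is the start was not given.

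Il23r, Il1r1 and Cxcr5 lacked a peak in KO rep1 alone, as did 3.07% of all coding genes. Il23r, the receptor subunit for IL-23, had no peak in KO rep1 and 1225 b in KO rep2, against 2092 b in WT rep1 and 2814 b in WT rep2. Il1r1, the IL-1 receptor, had no peak in KO rep1 and 1702 b in KO rep2, against 3919 and 5956 b in WT. Cxcr5, the receptor for the follicular chemokine CXCL13, had none in KO rep1 and 753 b in KO rep2, against 2587 and 2785 b in WT. At all 3 genes KO rep2 had a peak narrower than either WT peak. Il17a and Il22, the signature cytokines, had no peak in any library.

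Among the 25 cytokine receptors, 16 had a peak in KO rep1 and 23 in KO rep2, against 23 in WT rep1 and 24 in WT rep2. In KO rep1 alone, 6 lacked one, namely Il23r, Il1r1, Il18r1, Il18rap, Il2rb and Il7r. Of all coding genes, 3.07% did so. This list, too, was chosen with results of these data known. Il7r, the receptor on which ILC survival depends, had no peak in KO rep1 and 2898 b in KO rep2, against 3118 b in WT rep1 and 3271 b in WT rep2. Its value in KO rep2 was close to those in WT. Il2rg, the shared γ chain, had 747 and 2061 b in KO, against 2032 and 2347 b in WT. Among the receptors the missing peaks thus lay mainly in KO rep1.

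Chemokine and homing receptors were also fewest in KO rep1, with 6 of 20 in KO rep1 and 15 in KO rep2, against 13 in WT rep1 and 17 in WT rep2. Gpr183, the oxysterol receptor that places ILC3s in lymphoid tissue, had no peak in KO rep1 and 2865 b in KO rep2, against 3711 and 4263 b in WT; KO rep1 had 656 b in the same merged region, outside 1000 b of the start. Cxcr6 had none in KO rep1 and 2864 b in KO rep2, against 1175 and 3426 b in WT. Of 15 effector cytokines and TNF ligands, 6 and 10 had a peak in KO, against 11 and 12 in WT. Lta and Tnfsf4 had one in WT alone, which is 13.3% of the list against 0.194% of all coding genes. Both lost this call at a fold enrichment of 5 or more. Tnfsf11, which encodes RANKL, had 961 and 1530 b in KO, against 1926 and 2688 b in WT.

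**Figure D4:**
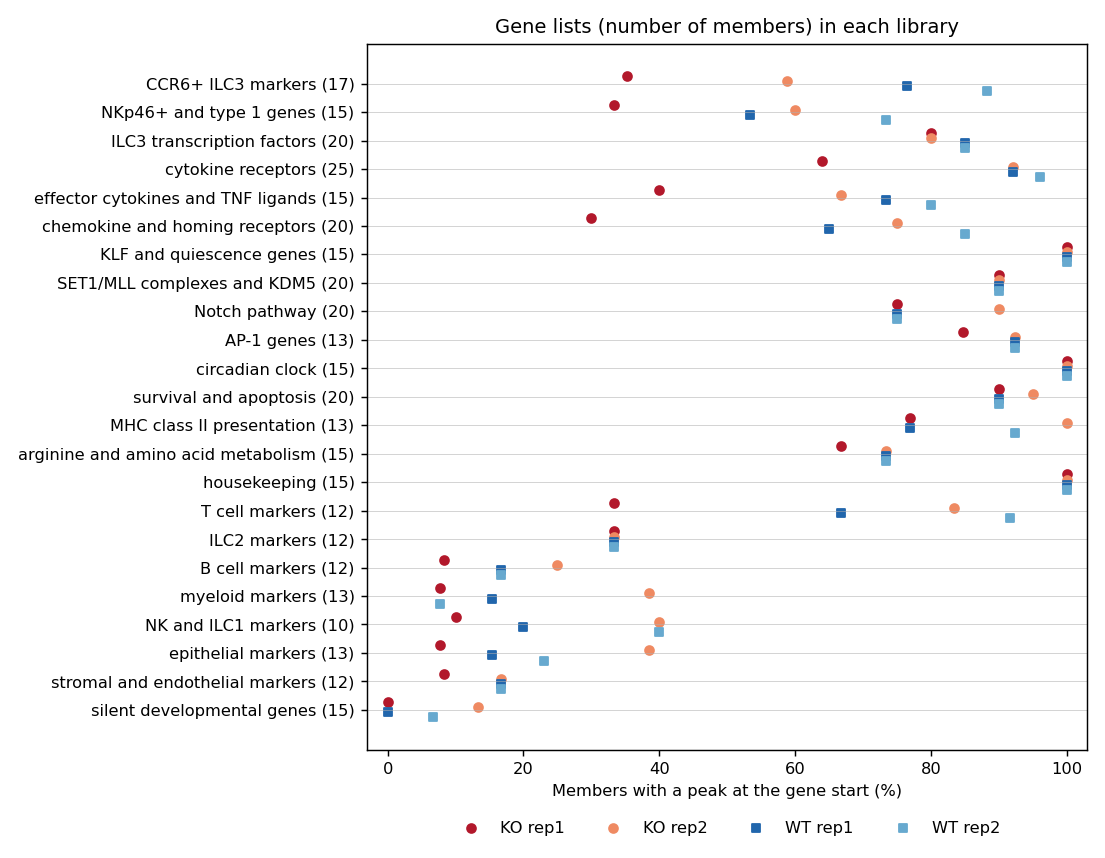
Percent of the members of each gene list with a peak at the gene start, with circles for KO and squares for WT libraries; the number of members stands in brackets. CCR6+ markers range from 6 of 17 in KO rep1 to 15 of 17 in WT rep2, and the KLF, clock and housekeeping lists are at 15 of 15 in every library.

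Most transcription factors of ILC3s had a peak in every library. Of 20, 16 had one in each KO library, against 17 in each WT library. Their widths were lower in KO at 12 of the 16, against 45.8% of all genes with a peak in every library, with a median log2 difference of −0.28 after centring, −0.28 in replicate 1 and −0.20 in replicate 2. Gata3, which ILC development needs, had 1310 and 2978 b in KO, against 3495 and 3706 b in WT. Nfil3, a factor of early ILC development, had 1623 and 2322 b in KO, against 3257 and 3823 b in WT. At both the KO widths lay below the WT widths. After centring, this held at 1503 of the 10096 genes with a peak in every library, and the reverse at 1335. Neither gene passed limma's test with Benjamini-Hochberg adjustment over all regions (adjusted p = 0.989 each).

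All 15 KLF and quiescence genes, 15 clock genes and 15 housekeeping genes had a peak in each library. Their median width differences were −0.06, −0.03 and −0.03 on the log2 scale. Of 20 Notch pathway genes, 15 and 18 had a peak in KO, against 15 and 15 in WT, and of 20 survival genes, 18 and 19 in KO, against 18 and 18. Of 13 MHC class II presentation genes, which CCR6+ ILC3s use to present antigen, 10 and 13 had a peak in KO, against 10 and 12 in WT. Their widths were lower in KO at 10 of the 10 with a peak in every library, against 45.8% of all such genes, with a median of −0.40. By replicate, 9 of the 10 were lower in replicate 1, with a median of −0.87, and 7 in replicate 2, with a median of −0.04. Cd74, the invariant chain, had 401 and 2436 b in KO, against 2580 and 2509 b in WT. The difference was thus mostly that of KO rep1. Of the remaining programmes, 11 and 12 of 13 AP-1 genes had a peak in KO, against 12 and 12 in WT, and 10 and 11 of 15 genes of arginine and amino acid metabolism, against 11 and 11.

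Markers of other cells also moved with the libraries. T cell markers had a peak at 4 and 10 of 12 in KO, against 8 and 11 in WT, with Cd5 at 0 in all 4. Myeloid markers were at 1 and 5 of 13 in KO, against 2 and 1 in WT, with Csf1r and Itgam at 0 throughout. NK and ILC1 markers were at 1 and 4 of 10 in KO, against 2 and 4 in WT, and NKp46+ and type 1 genes at 5 and 9 of 15, against 8 and 11. Epithelial markers were at 1 and 5 of 13 in KO, against 2 and 3 in WT, with Vil1 and Muc2 at 0. B cell markers were at 1 and 3 of 12, against 2 and 2, with Pax5 at 0. Stromal and endothelial markers were at 1 and 2 of 12, against 2 and 2, ILC2 markers at 4 of 12 in every library, and silent developmental genes at 0 and 2 of 15 in KO, against 0 and 1 in WT. In the lists with members named at 0, other members had a peak in every library. They were Cd3e, Cd247 and Lat (T cell), Cd14 (myeloid), Epcam (epithelial) and Cd79b (B cell). KO rep2 was the highest, alone or tied, for myeloid, NK and ILC1, epithelial, B cell and developmental genes. Other cells in the sorts and their part in the differences were not tested.

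Of the 332 distinct genes in these lists, 8 had a peak in WT alone and 2 in KO alone, against 0.194% and 0.162% of all coding genes. A further 23 (6.93%) lacked one in KO rep1 alone, against 3.07% of all coding genes. For the list genes as for the whole, the KO rep1 library held the larger part of the missing peaks.

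Width and rank were tested where all 4 lists had a peak, over 10935 merged regions. Width is the number of bases covered, on a log2 scale and centred on the median of each library, since these medians differed. They were 837 b in KO rep1 and 1317 b in KO rep2, against 1118 b in WT rep1 and 1296 b in WT rep2. The mean of the log2 medians was 0.20 lower in KO, although KO rep2 had the highest median. By limma, 0 regions had an adjusted p under 0.05 for width. Unadjusted, 261 regions (2.39%) had a p under 0.05, of which 84 were wider and 177 narrower in KO. The smallest adjusted p was 0.989. The 5th to 95th percentile of the log2 differences was −0.53 to 0.29, with a median SE of 0.18.

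The 10 gene-start regions narrower in KO with the smallest p were those of Ablim3, Rnf43, Hbegf, Rab11fip1, Tecpr1, Stx1a, Gpr157, Prelid2, Arrdc4 and Cryaa. Hbegf, an EGF family growth factor, had 570 b in KO rep1 and 1096 b in KO rep2, against 2156 and 2152 b in WT, a log2 difference of −1.25 ± 0.18 (SE; limma adjusted p = 0.989). Rnf43, a ubiquitin ligase that restrains Wnt signalling, had 585 and 890 b in KO, against 1780 and 2757 b in WT (−1.42 ± 0.19). Rab11fip1, an endosomal recycling protein, had 843 and 1330 b in KO, against 2674 and 2605 b in WT. At these 3, picked by p from these same values, the KO widths were all below the WT widths. None of the 3 passed the adjusted test. Centred gene-start widths were lower in both KO than both WT libraries at 1503 of 10096 genes with a peak in every library. They were higher at 1335. Regions did pass without KO rep2, but that fit has KO rep1 as its only KO library. It cannot tell the genotype from that library.

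The same regions were then read in the other subsets, whose libraries the choice did not use. Of the 10, 9 had a peak in all 12 H3K4me3 lists of the series. In NKp46+ ILC3s the KO widths were lower than WT at 9 of the 9, by a median of 0.80 on the log2 scale, against 55.3% of all 10045 regions that had a peak in all 12. In DN ILC3s, which lack both markers, they were lower at 9 of the 9, by a median of 0.83, against 43.7% of all regions. The 10 wider in KO with the smallest p began with Atp1b1, the β1 subunit of the sodium pump, with 1199 and 1765 b in KO, against 591 and 852 b in WT, and then Smpdl3b, Oaf, Rassf8, Fam83g, Aplp1, Zfp365, Cyhr1 with Kifc2, Rab39 and Lurap1. Of them, 3 had a peak in all 12 lists and were wider in KO at 3 of 3 in each other subset, by medians of 0.56 and 0.09. Tested directly, the KO minus WT width difference in CCR6+ cells differed from that in the other subsets at 0 of 10045 regions (limma, smallest adjusted p = 1.0; 112 with an unadjusted p under 0.05).

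**Figure D5:**
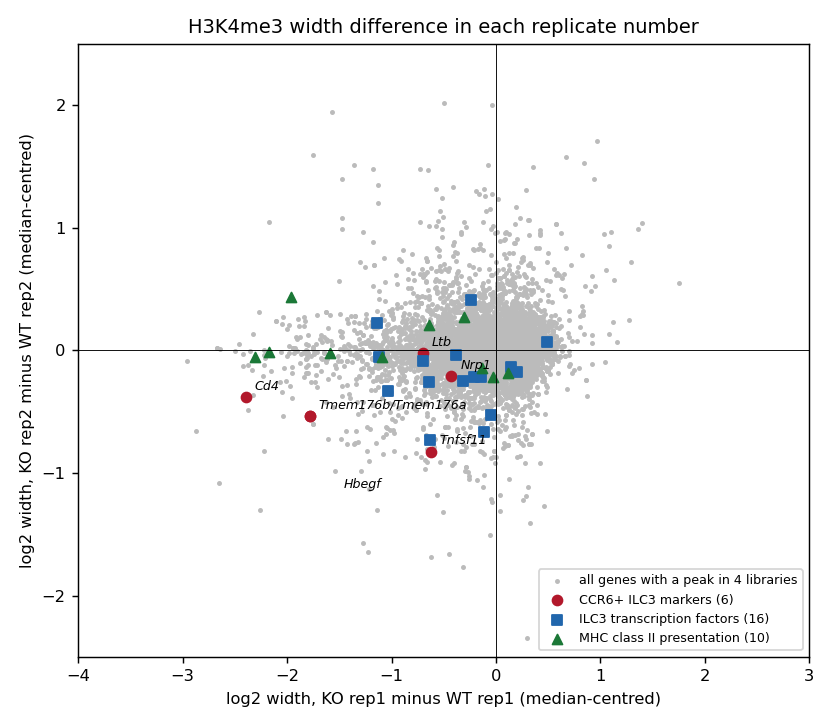
Log2 width of gene-start peaks, KO minus WT, in replicate 1 (x) and replicate 2 (y), each library centred on its median, for the 10096 genes with a peak in all libraries. The 6 CCR6+ markers lie below 0 in both replicates, several MHC class II genes lie far below 0 in replicate 1 and near 0 in replicate 2, and 1 gene falls outside the axes.

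Rank was compared as the normal score of a region's fold enrichment within its own list. By limma, 0 of 10935 regions passed (smallest adjusted p = 1.0), and 115 had an unadjusted p under 0.05 (1.05%), 51 higher and 64 lower in KO. With the replicate number as a block, 2 passed. Regions also passed without KO rep1 or without KO rep2, but such fits have a single KO library and cannot tell the genotype from it. P2rx7, the ATP-gated ion channel, ranked lower in KO, at percentiles 0.215 and 0.965 of the constant regions, against 21.1 and 25.7 in WT (score difference −1.87 ± 0.34, SE with the block; limma adjusted p = 0.0256 with the block and 1.0 without). Dok6, an adaptor of receptor tyrosine kinases, ranked higher in KO, at percentiles 29.1 and 76.1, against 0.61 and 11.2 in WT (1.94 ± 0.34, SE with the block; limma adjusted p = 0.0256 with the block and 1.0 without). Ly9, a SLAM family receptor, was at percentiles 3.93 and 15.8 in KO, against 40.1 and 66.4 in WT. Bcl2l1, which encodes the survival protein BCL-XL, was at 76.2 and 57.3 in KO, against 29.7 and 22.5 in WT. These 4 genes were picked by p from these same values, so the gap between their KO and WT percentiles is no further evidence. Ly9 and Bcl2l1 passed neither fit. Next by p among the lower came Dkkl1, Rps6ka1, Fam32a, Josd2, Tmed9, Xlr4a, Grn and Exosc2, and among the higher Trim8, Cst6, Etnk2, Vash2, Lmo7, Clec16a, Scd1 and Tmem238.

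Where a CFP1 peak was called in WT cells, H3K4me3 regions were wider in every library. At 3538 gene-start regions with a CFP1 peak in both WT lists, the median log2 width exceeded that of 3711 regions with none by 0.64 in KO rep1 and 0.29 in KO rep2, against 0.41 in WT rep1 and 0.37 in WT rep2. The KO minus WT difference in this excess was 0.07, being 0.23 in replicate 1 and −0.08 in replicate 2 (exact permutation p = 1, n = 2 per genotype). It was −0.11 without KO rep1. The 2 KO libraries lay on both sides of the WT libraries.

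Away from gene starts, the mark was called more unevenly. Distal regions are merged peaks farther than 1000 b from any coding or noncoding gene start. There were 6962, of which 1469 and 5721 had a peak in the KO lists, against 4055 and 3659 in the WT lists. Both WT lists and neither KO list had a peak at 249 (3.58%), and both KO lists and neither WT list at 46 (0.661%). At coding gene starts these patterns took 52 (0.459%) and 37 (0.326%) of 11337 regions. A peak in KO rep2 alone was at 1968 distal regions, and 1361 lacked one in KO rep1 alone. Of the 249, 166 lay inside genes (3.56% of such regions) and 83 between them (3.62%), and of the 46, 27 (0.578%) and 19 (0.829%). At noncoding gene starts the counts were 37 (3.17%) and 11 (0.942%) of 1168. With the remaining 3 libraries, the 249 became 1610 without KO rep2, 557 without WT rep1 and 835 without WT rep2, and the 46 became 2014 without KO rep1, 117 without KO rep2, 108 without WT rep1 and 90 without WT rep2.

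The 5 strongest of the 249 lay in Dpy19l3, Cep57l1 and A4galt, 8209 b from Ust, and 193555 b from Nmbr. The region in A4galt (chr15:83237443-83239022) had no peak in KO, against 1399 b in WT rep1 and 1580 b in WT rep2. The 5 strongest of the 46 were in or near Fcrlb, Tnrc6a, Rnf186, Wwc2 and Tmem61. The region in Fcrlb (chr1:170907311-170908658) had 522 and 1348 b in KO and none in WT. In the other subsets, 42 of the 249 were covered in both WT and in neither KO list of DN ILC3s, and 15 in NKp46+ ILC3s, while 7 and 0 showed the opposite in NKp46+ and DN. Of the 46, 16 in NKp46+ and 3 in DN were covered in both KO and in neither WT list. For comparison, 1219 distal regions had a peak in all 4 CCR6+ lists. Of these, 27 in NKp46+ and 3 in DN were covered in both KO and in neither WT list. In both WT and in neither KO list, 1 in NKp46+ and 4 in DN were covered. The 1219 ranked higher, with a median percentile of 41.6, against 14.0 for the 249 and 16.6 for the 46. At least 1 KO list covered 1216 of them in NKp46+ and 1207 in DN, and at least 1 WT list 1188 and 1199. Few could thus show either pattern, so they are no matched comparison. The share over all distal regions was not counted.

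The genes that differed in CCR6+ ILC3s were also read in the other subsets. Of the 42 marked in WT alone, 28 had a peak in fewer KO than WT libraries of NKp46+ ILC3s and 1 in more, and in DN ILC3s 27 had fewer and 0 more. Over all 21631 coding genes, 177 had fewer and 1504 more in NKp46+ ILC3s, which leaned to more peaks in KO, and 587 fewer and 559 more in DN ILC3s. The full pattern, both WT and neither KO, was shared by 7 genes in NKp46+ (Nmur1, Bpnt1, Nupr1, Adgrg3, Arg1, Gm52351 and Pdgfrb) and by 12 in DN, among them Arg1, Nupr1, Ucp3 and Ptges. Across all coding genes it was at 19 genes in NKp46+ (0.0878%) and 33 in DN (0.153%). Of the 35 marked in KO alone, 30 had a peak in more KO than WT libraries of NKp46+ ILC3s and 0 in fewer, and in DN 18 more and 1 fewer. The full pattern was shared by 13 in NKp46+, where 430 genes (1.99%) showed it, and by 4 in DN (Dlx1, Sun3, Gm11992 and Jag2), where 30 genes (0.139%) did. No gene of either group had the opposite pattern in another subset. Jag2 and the homeobox gene Dlx1 were thus marked in both KO and neither WT libraries of all 3 subsets, and Arg1, Nupr1, Bpnt1 and Adgrg3 in both WT and neither KO libraries of all 3.

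The genes without a peak in KO rep1 alone were mixed across the other subsets. Of these 663, 41 had a peak in fewer and 287 in more KO than WT libraries in NKp46+ ILC3s, and 238 in fewer and 83 in more in DN ILC3s. KO rep1 of NKp46+ had a peak at 523 of them and KO rep1 of DN at 234.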

How the data were processed

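The authors deposited 1 narrowPeak list per library; the submitters' processing notes name MACS2 2.2.7.1, ChIPseeker 1.28.3, Picard, Bowtie2 2.3.5.1 and fastp 0.19.7 and build mm10, without roles or settings. In each list the authors deposited, a peak has a fold enrichment (a ratio) and a q-value as its −log10, of which the smallest was 1.30 to 1.35, so every peak has a q of at most 0.05. Fold enrichment was used only as a rank within its own list. The lists hold no counts.

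Peaks on the 19 autosomes and X were used; 35 to 41 per list on other sequences were left out. Gene starts came from RefSeq (GRCm38.p6, the coordinates of mm10): all starts listed for 17274 coding genes, and both annotated ends for the other 4357, since the gene table has no strand. A gene had a peak when 1 b or more fell within 1000 b. Widths are the summed widths of those peaks. Overlapping peaks of the 4 lists were merged into 19467 regions, classed as coding start, noncoding start, intragenic or intergenic. Library values were compared by exact two-sided permutation, and regions by limma 3.58.1 (R 4.3.3) at a Benjamini-Hochberg adjusted p under 0.05, checked on simulated data. Other steps used SciPy 1.17.1, pandas 2.3.3, NumPy 2.4.6 and matplotlib 3.10.9 in Python 3.11.15.

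The titles number the replicates. The names of the deposited lists carry a tag shared by the KO and WT libraries of 1 number, whose meaning is not stated, and deviations from the group means in log2 width correlated at 0.24 between KO and WT replicate 1 across regions. Values within each replicate number are therefore printed, and the block was an alternative. The members, gene lists (23 lists, 332 genes) and tests were chosen with earlier results of these data known. Named were Cxxc1, list members with a peak in both libraries of 1 genotype only, the 10 genes per direction with the highest mean percentile, the 10 regions per direction with the smallest p, and the 5 strongest distal regions per direction, passing over predicted genes; a few others are given as examples of their lists. Alternatives were other windows, filters, merging, scaling and left-out libraries, and, added after seeing the data, both ends for every gene and listed starts only. A few genes named by this rule, and their values, are left out here.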

Additional observations from a re-analysis of the deposited data

How the results depend on the processing

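Cutting every list to the 11794 strongest peaks by −log10 q gave 113 genes with a peak in WT alone and 98 in KO alone, against 42 and 35. A −log10 q of 5 or more gave 16 genes and 16 distal regions marked in KO alone, against 35 and 46, and a fold enrichment of 5 or more gave 28 such distal regions; the cause of these moves was not tested. Windows of 500 and 2000 b gave 44 and 44 genes in WT alone and 34 and 38 in KO alone; both annotated ends for every gene gave 39 and 34, and listed starts only 31 and 31. Tnfsf4 lost its call at both other windows, with the whole gene searched, and under every filter of the peaks. It held with both annotated ends for every gene, which were already used for it. Ccr6 lost its call at 2000 b, and Ccr6, Lta, Cd8b1, Jag2 and Il4 at a fold enrichment of 5 or more. Cd8b1 also lost it with every list cut to the same length. Over the named genes, 192 of 240 calls of presence under another window, filter or gene start were as reported and 48 were not; none turned round. Leaving out a library cannot change these calls.

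With 1 library left out, genes in WT alone ranged from 43 to 705, genes in KO alone from 42 to 717, distal regions in WT alone from 257 to 1610 and in KO alone from 90 to 2014. The log2 peak number ratio ranged from −0.36 to 0.26, the width ratio from −0.43 to 0.045 and the share at starts from −6.01 to 12.9 points. The excess width at starts with a CFP1 peak in both WT lists ranged from −0.11 to 0.25. The turned signs were all without KO rep1. Regions passing for width ranged from 0 to 639 and for rank from 0 to 172; a lone library was assumed to vary like the other genotype. The replicate block gave 2 regions for rank and 0 for width (592 with an unadjusted p under 0.05), and it changed no other call. Quantile scaling and no centring gave 0 regions for width. With 2 libraries a genotype, no exact p could pass the threshold, and unknown depth limits what a missing peak shows.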
